A study of Mus musculus with 9 samples.

Results

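The CC chemokine ligands described here were 9 genes, Ccl2, Ccl3, Ccl4, Ccl5, Ccl6, Ccl7, Ccl9, Ccl17 and Ccl22. They were chosen as the rows of the deposited count table whose mouse Ensembl identifier maps to those symbols, 9 of 22001 rows. The rule uses no measured value, though the set was proposed with earlier results of these data known. All 9 passed the filter on low counts, as did 11469 rows in all. The ligands were set in 2 classes from textbook knowledge: Ccl2, Ccl3, Ccl4, Ccl5, Ccl7, Ccl17 and Ccl22 as inducible, and Ccl6 and Ccl9 as constitutive in macrophages.

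CC chemokines are small secreted proteins with adjacent cysteines near the amino terminus, which bind G protein-coupled receptors on leukocytes and direct their migration. In macrophages, the genes of the inducible class are switched on by Toll-like receptor signals through the transcription factor NF-kappaB and its partners. Ccl6 and Ccl9, which rodents have, are made by resting myeloid cells.

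The cells were bone marrow-derived macrophages (strain C57BL6), which are grown out of marrow in culture, and their RNA was sequenced in 9 libraries of 3 groups taken at 6 h. The 3SL-labelled group (A2plus, B2plus and C2plus) had Pam3CSK4 at 100 µg/ml and 3SL, given in the labels by volume as 100 µl/ml. The Pam3CSK4-labelled group (D1, D2 and D3) had Pam3CSK4 at 100 µg/ml alone, and the untreated-labelled group (A2, B2 and C2) had PBS. Pam3CSK4, a lipopeptide made to resemble bacterial lipoproteins, acts on the receptor pair TLR1 and TLR2. By the series title, 3SL stands for 3'-sialyllactose, an oligosaccharide of milk. The sample titles write Pamc3 for the Pam3CSK4-labelled group and Pamc4 for the 3SL-labelled one. The labels do not state whether the 3 libraries of a group are separate cultures, so the p-values measure the spread between libraries, which may be technical. The letter D marks one group alone, and whatever it stands for cannot be told apart from the treatment.

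Total counts per library ran from 7472482 to 43980309, and 3 counts, the floor used here for a count of 0, came to 0.0746 to 0.422 CPM (counts per library total, scaled to a common size). Il1b, the gene of the cytokine interleukin-1 beta, averaged 8136 ± 565 CPM in 3SL-labelled, 6.23 ± 1.68 CPM in Pam3CSK4-labelled and 10160 ± 457 CPM in untreated-labelled libraries (SD, n = 3 each). Tnf, the gene of the cytokine TNF, averaged 1267 ± 58.2 CPM in 3SL-labelled, 18.4 ± 0.67 CPM in Pam3CSK4-labelled and 1704 ± 46.0 CPM in untreated-labelled libraries (SD, n = 3 each). Toll-like receptor activation raises both genes in macrophages as textbook knowledge, so these levels go against the group labels. Groups are therefore named by their labels throughout, and every direction given here rests on those labels. The 12 macrophage markers were all present, with a summed level of 25763 to 26544 CPM in 3SL-labelled, 19237 to 19685 CPM in Pam3CSK4-labelled and 26720 to 27340 CPM in untreated-labelled libraries. Of these 12, 4 were called higher and 6 lower in Pam3CSK4-labelled against untreated-labelled libraries (6 and 3 with scaling by library size alone). Over all genes tested 39.0% were called higher and 35.9% lower in that comparison.

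The ligand genes lie in clusters. By GENCODE annotation of GRCm38, used here for positions because the count table holds none, Ccl2 (ENSMUSG00000035385, chr11:82035571-82037453, plus strand) and Ccl7 (ENSMUSG00000035373, chr11:82045712-82047525, plus) are 8.3 kb apart. The next ligand gene of the 9, Ccl5 (ENSMUSG00000035042, chr11:83525778-83530518, minus), lies 1478.3 kb further along. It is followed after 42.4 kb by Ccl9 (ENSMUSG00000019122, chr11:83572919-83578636, minus) and after 9.2 kb more by Ccl6 (ENSMUSG00000018927, chr11:83587882-83593087, minus). Ccl3 (ENSMUSG00000000982, chr11:83647844-83649355, minus) and Ccl4 (ENSMUSG00000018930, chr11:83662584-83664683, plus) are 13.2 kb apart on opposite strands. Ccl22 (ENSMUSG00000031779, chr8:94745590-94751699, plus) and Ccl17 (ENSMUSG00000031780, chr8:94810453-94812036, plus) are 58.8 kb apart on chromosome 8. All 9 are annotated as protein-coding. Ccl2 overlaps the gene Gm17268, a row of the table with 0 counts in all 9 libraries. How reads in that overlap were assigned is not given, so whether Ccl2 lost reads there is not known. Ccl6 overlaps E230016K23Rik, which is not a row of the table. Reads of that gene and of Ccl6 cannot be told apart without the strand setting.

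RefSeq promoter windows on GRCm38.p6, from 250 bases before to 50 bases after the start of transcription, were matched for 5 of the 9 members: Ccl3, Ccl6, Ccl9, Ccl17 and Ccl22. Ccl2, Ccl4, Ccl5 and Ccl7 were not among them. The upstream parts of 3 windows are shown because Ccl9 and Ccl6 are neighbours of the constitutive class whose levels parted between the groups, and Ccl22 had the largest fitted change of the members with more than 1 count in every group. Each reads 5′ to 3′ on the gene's strand, and capitals mark matches, on either strand, to GGG followed by 5 bases of any kind and CC, a loose form of the NF-kappaB motif. The Ccl9 stretch is chr11:83578637-83578886 (minus strand), the Ccl6 stretch is chr11:83593088-83593337 (minus strand) and the Ccl22 stretch is chr8:94745434-94745589 (plus strand), which ends before the annotated GENCODE start.
Ccl9: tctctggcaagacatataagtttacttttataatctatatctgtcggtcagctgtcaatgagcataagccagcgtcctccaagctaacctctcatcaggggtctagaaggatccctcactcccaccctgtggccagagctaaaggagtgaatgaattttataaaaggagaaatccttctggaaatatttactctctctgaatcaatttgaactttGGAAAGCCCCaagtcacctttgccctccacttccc
Ccl6: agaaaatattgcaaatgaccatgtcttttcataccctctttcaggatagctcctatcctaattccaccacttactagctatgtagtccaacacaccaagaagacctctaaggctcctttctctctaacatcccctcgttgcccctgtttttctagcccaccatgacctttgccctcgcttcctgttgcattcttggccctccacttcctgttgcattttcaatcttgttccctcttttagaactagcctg
Ccl22: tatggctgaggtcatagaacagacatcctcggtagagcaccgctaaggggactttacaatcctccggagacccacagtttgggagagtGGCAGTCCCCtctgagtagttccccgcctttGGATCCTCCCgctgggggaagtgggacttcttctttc

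Positions count from the RefSeq start of transcription, which for Ccl22 lies inside the gene as GENCODE annotates it. The Ccl9 window holds 1 match, GGAAAGCCCC, starting 35 bases before the transcription start. The Ccl6 window holds none, and neither do those of Ccl3 and Ccl17. The Ccl22 window holds 2 matches, GGCAGTCCCC starting at -162 and GGATCCTCCC starting at -131. These letters are common: 16686 of 32851 RefSeq promoter windows of the same length, 50.8%, hold at least 1 match, so a match or its lack describes the window and nothing more. A pair of other motifs was searched after the sequences had been read. A loose form of the AP-1 motif, TGANTCA with any base in the middle, occurs in the Ccl9 window at -53, as TGAATCA. It occurs in 7.8% of all windows. The PU.1 form AGGAAG, searched on both strands, occurs in the Ccl6 window at -73 and -47 and in the Ccl17 window at -57. It also occurs in the Ccl22 window at -17, past the GENCODE start, and in 35.4% of all windows. None of these matches overlaps another motif. Aligned end to end, with gaps left out of the percentage, the Ccl6 and Ccl9 windows shared 164 of 241 aligned bases, 68.0%. The Ccl17 and Ccl22 windows shared more bases, 168 of 262, 64.1%, so which pair is most alike depends on how gaps count. The remaining pairs among the 5 windows shared 54.4% to 62.5%.

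All 9 ligands had fewer transcripts in Pam3CSK4-labelled than in untreated-labelled libraries, by between 1.38-fold for Ccl6 and 210-fold for Ccl22, leaving aside Ccl17, which was close to 0. All 9 passed edgeR's quasi-likelihood test (Benjamini-Hochberg adjusted over 11469 genes, threshold 0.05), and in all 9 the groups did not overlap. Over all genes tested, 35.9% were called lower and 36.5% were lower without overlap. The median log2 change was -3.95 over the 9 ligands and 0.03 over all genes. Over all genes 75.0% were called, 4474 higher (39.0%) and 4123 lower, and 39.5% were higher without overlap. Of the calls 52% were higher, and with scaling by library size alone that share was 74.3%. In bulk libraries, fewer cells of a type and less RNA per cell cannot be told apart.

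Ccl3, Ccl4 and Ccl5, which attract monocytes and T cells, were 15.4-fold to 99.3-fold lower in Pam3CSK4-labelled libraries. Ccl3, also called MIP-1 alpha, which binds CCR1, had 2102, 2219 and 2294 CPM in 3SL-labelled libraries, 70.8, 61.0 and 71.2 CPM in Pam3CSK4-labelled and 3112, 3079 and 2969 CPM in untreated-labelled libraries. Its log2 change in Pam3CSK4-labelled over untreated-labelled libraries was -5.50 ± 0.047 (SE), 45.4-fold lower (edgeR adjusted p = 8.25e-34). The 3 Pam3CSK4-labelled libraries were low, and the untreated-labelled ones lay above the 3SL-labelled ones with no overlap.

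Ccl4, or MIP-1 beta, had 788, 827 and 821 CPM in 3SL-labelled libraries, 66.6, 58.3 and 73.7 CPM in Pam3CSK4-labelled and 1022, 1048 and 978 CPM in untreated-labelled libraries. It fell by 3.95 ± 0.052 on the log2 scale in Pam3CSK4-labelled against untreated-labelled libraries (edgeR adjusted p = 8.4e-30). Ccl5, or RANTES, which attracts T cells and monocytes through receptors that include CCR1 and CCR3, had 330.1, 371 and 386 CPM in 3SL-labelled libraries, 5.04, 4.19 and 4.89 CPM in Pam3CSK4-labelled and 456, 492 and 438 CPM in untreated-labelled libraries. Its Pam3CSK4-labelled levels rested on 63, 73 and 64 counts, and it was 99.3-fold lower there than in untreated-labelled libraries, with a log2 change of -6.63 ± 0.079 (edgeR adjusted p = 9.47e-31). For both genes the groups stood apart in the order Pam3CSK4-labelled, 3SL-labelled and untreated-labelled, lowest first.

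The CCR2 ligands, which recruit monocytes, were down less than Ccl3, Ccl4 and Ccl5. Ccl2, or MCP-1, had 550.2, 601 and 614 CPM in 3SL-labelled libraries, 198, 158 and 217 CPM in Pam3CSK4-labelled and 860.1, 865 and 754 CPM in untreated-labelled libraries. It fell by 2.12 ± 0.069 on the log2 scale, 4.36-fold, in Pam3CSK4-labelled against untreated-labelled libraries (edgeR adjusted p = 1.04e-20). Ccl7, or MCP-3, had 487, 511 and 519 CPM in 3SL-labelled libraries, 131, 105 and 156 CPM in Pam3CSK4-labelled and 676, 698 and 605 CPM in untreated-labelled libraries. Its fall was 2.35 ± 0.075 on the log2 scale, 5.11-fold (edgeR adjusted p = 7.22e-21). D2 was the lowest and D3 the highest Pam3CSK4-labelled library for both neighbours, and the coefficient of variation in that group was 15.8% for Ccl2 and 19.4% for Ccl7. In the same group it was 8.59% for Ccl3, 11.7% for Ccl4, 9.65% for Ccl5, 3.85% for Ccl6 and 3.72% for Ccl9, and 61.8% for Ccl22 and 173% for Ccl17, which had few counts.

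The CCR4 ligands, which attract T helper and regulatory T cells and are known products of dendritic cells and alternatively activated macrophages, were almost without counts in the Pam3CSK4-labelled group. Ccl22, or MDC, had 71.0, 73.2 and 78.0 CPM in 3SL-labelled libraries, 0.16, 0.746 and 0.535 CPM in Pam3CSK4-labelled and 111, 111 and 104 CPM in untreated-labelled libraries. The Pam3CSK4-labelled values were 2, 13 and 7 counts, and the log2 change from untreated-labelled libraries was -7.71 ± 0.124 (edgeR adjusted p = 9.36e-28). It was -7.36 without D1 and -8.24 without D2, the range over fits with 1 library left out.

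Ccl17, or TARC, was the rarest ligand, with 1.83, 2.74 and 3.36 CPM in 3SL-labelled libraries, 0, 0.0574 and 0 CPM in Pam3CSK4-labelled and 5.004, 6.14 and 5.62 CPM in untreated-labelled libraries. It had 1 count in the 3 Pam3CSK4-labelled libraries together and 379 in the untreated-labelled ones. Scaled for the depth of the libraries, this is a ratio of 249 with a counting interval of 44.4 to 9861 (95%, counting error only). The edgeR adjusted p was 3.21e-14. The count came from D2, and the fitted log2 change of -7.49 was -9.39 without that library, so the fitted value is no bound on the change.

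Dendritic cell markers moved in the same comparison. The 9 dendritic cell markers summed to 85.7 to 90.1 CPM in 3SL-labelled, 40.9 to 41.5 CPM in Pam3CSK4-labelled and 87.7 to 89.4 CPM in untreated-labelled libraries, of which Itgax, which macrophages share, made up 84.8, 36.3 and 82.5 CPM on average. Of the 4 that passed the filter, Itgax, Xcr1 and Siglech were lower and Batf3 higher in Pam3CSK4-labelled against untreated-labelled libraries. Over all genes 35.9% were called lower and 39.0% higher in that comparison. Xcr1 had 1, 2 and 5 counts in D1, D2 and D3. Flt3 and Zbtb46, which define the lineage, stayed between 0.102 and 1.32 CPM in all libraries, and Cd209a and Cd207 had 0 counts in the 3SL-labelled ones. Cd207, which did not pass the filter, had 10, 11 and 9 counts in D1, D2 and D3 (0.631 to 0.800 CPM). In A2, B2 and C2 it had 1, 3 and 0 counts, so it lay higher in Pam3CSK4-labelled libraries without overlap. In 3SL-labelled against untreated-labelled libraries Siglech alone was called, lower (log2 -1.17 ± 0.346, edgeR adjusted p = 0.0302), where 5.11% of all genes were. The part of dendritic cells in the levels of Ccl17 and Ccl22 was not tested.

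**Figure D1:**
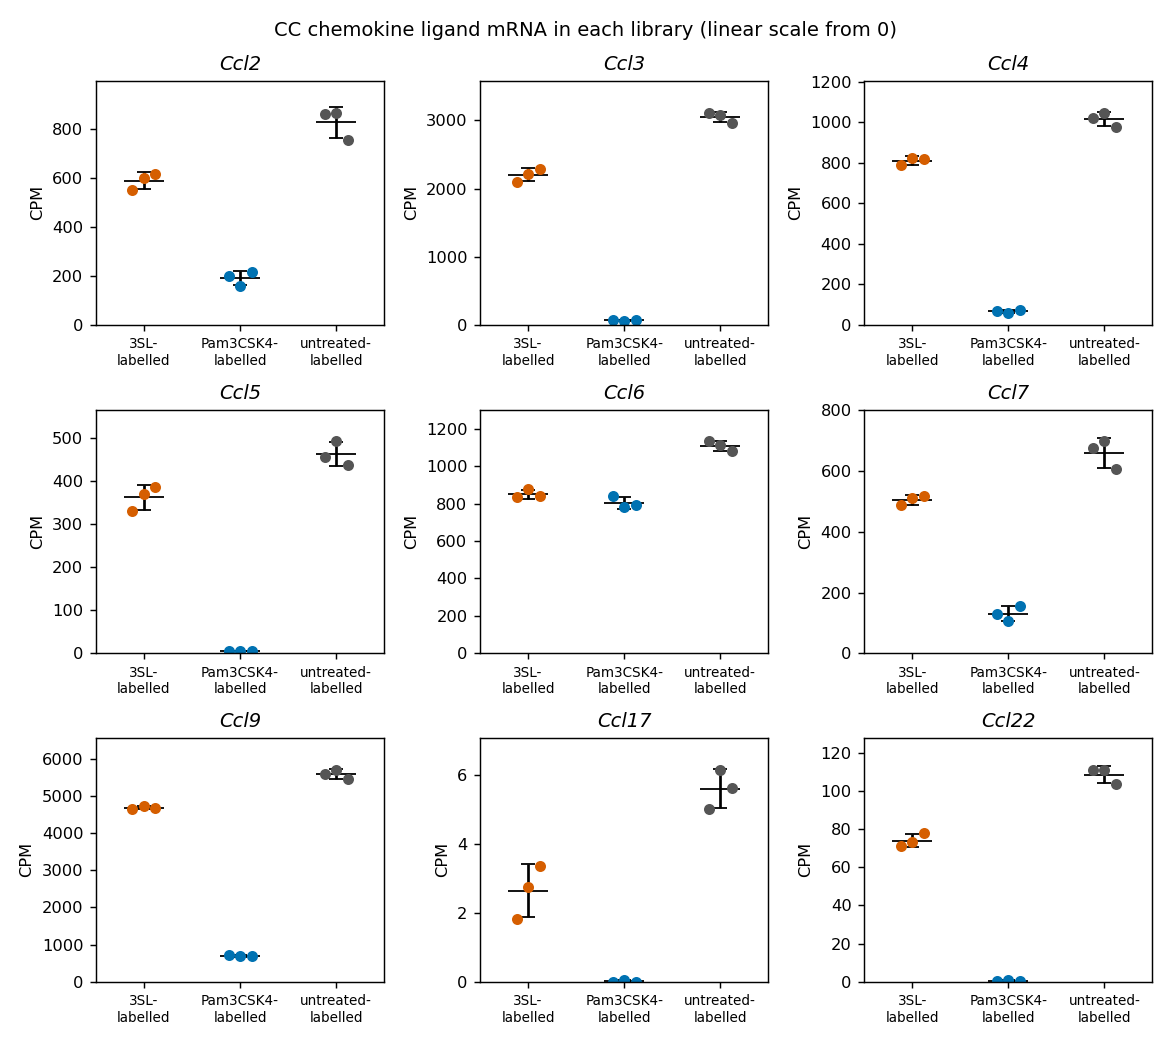
TMM-scaled CPM of each ligand on linear axes from 0, 1 panel a gene, with 3SL-labelled, Pam3CSK4-labelled and untreated-labelled libraries from left to right, points for libraries and bars for the mean and SD (n = 3 each). The Pam3CSK4-labelled points are the lowest in 8 panels, and in the Ccl6 panel they overlap the 3SL-labelled points.

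The constitutive class did not move as one. Ccl6, a ligand of CCR1, had 833, 878 and 839.8 CPM in 3SL-labelled libraries, 840.1, 782 and 793 CPM in Pam3CSK4-labelled and 1133, 1113 and 1081 CPM in untreated-labelled libraries. It fell by 0.46 ± 0.032 on the log2 scale in Pam3CSK4-labelled against untreated-labelled libraries, 27.5% lower (edgeR adjusted p = 3.56e-13), the smallest change of the 9. With scaling by library size alone its log2 change was -0.15 (edgeR adjusted p = 7.7e-05), and the range over the 15 alternatives was -0.50 to -0.15.

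Ccl9, also a CCR1 ligand and the gene next to Ccl6, had 4644, 4735 and 4672 CPM in 3SL-labelled libraries, 729, 687 and 682 CPM in Pam3CSK4-labelled and 5594, 5702 and 5446 CPM in untreated-labelled libraries. It was 7.98-fold lower in Pam3CSK4-labelled than in untreated-labelled libraries, with a log2 change of -3.0 ± 0.03 (edgeR adjusted p = 1.61e-32). That is farther down than the inducible Ccl2 and Ccl7. Its change lay inside the range of the inducible class. By class, the median log2 change in this comparison was -5.50 over the 7 inducible ligands, which ranged from -7.71 to -2.12, and -1.73 over the 2 constitutive ones at -3.0 and -0.46. The ranges overlap, and no test between the classes was made.

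The 3SL-labelled libraries had more of 8 of the 9 ligands than the Pam3CSK4-labelled ones, with no overlap, and Ccl6 differed little. In edgeR's test 9 of 9 were called higher, where 34.7% of all genes were, but the call for Ccl6 turned round with scaling by library size alone, its groups overlapped, and its mean TPM was 1503 in 3SL-labelled and 1769 in Pam3CSK4-labelled libraries. For the other 8 the groups did not overlap, where 35.5% of all genes were higher without overlap. The comparison shares the Pam3CSK4-labelled libraries with the one above, so its sizes stand beside those already given and are not independent of them. Over all genes 71.5% were called, 3978 higher and 4226 lower (36.8%), and 37.6% were lower without overlap. Of the calls 48.5% were higher, against 27.6% with scaling by library size alone.

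Ccl3 was 32.8-fold higher in 3SL-labelled than in Pam3CSK4-labelled libraries (log2 5.03 ± 0.047, edgeR adjusted p = 5.09e-33). Ccl4 was 12.3-fold higher (log2 3.63 ± 0.052, adjusted p = 7.22e-29). Ccl5 was 77.9-fold higher (log2 6.28 ± 0.081, adjusted p = 7.21e-30). The CCR2 ligands differed least among the inducible class, with Ccl2 at 3.10-fold (log2 1.63 ± 0.07, adjusted p = 7.58e-18) and Ccl7 at 3.91-fold (log2 1.97 ± 0.076, adjusted p = 8.11e-19).

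For the CCR4 ligands, Ccl22 was 143-fold higher in 3SL-labelled libraries (log2 7.16 ± 0.139, edgeR adjusted p = 7.71e-26). Ccl17 had 74 counts in 3SL-labelled against 1 in Pam3CSK4-labelled libraries, which scaled for depth is a ratio of 117 with a counting interval of 20.4 to 4689 (edgeR adjusted p = 2.85e-10), and its fitted log2 change of 6.43 was 8.33 without D2. In the constitutive class, Ccl9 was 6.70-fold higher (log2 2.74 ± 0.029, edgeR adjusted p = 1.12e-31).

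Ccl6 was the member whose call did not last. Its log2 change in 3SL-labelled over Pam3CSK4-labelled libraries was 0.08, with a 95% interval of 0.01 to 0.15 (edgeR adjusted p = 0.0305), and its groups overlapped, since D1 lay above A2plus and C2plus. With scaling by library size alone it turned to -0.19 (edgeR adjusted p = 3.93e-06). The adjusted p was 0.155 without D2, 0.108 without D3 and 0.147 without B2plus, and over its alternatives it ran from 3.93e-06 to 0.155. The median log2 change was 5.03 over the inducible ligands, 1.41 over the constitutive ones and 3.63 over all 9, beside -0.02 over all genes.

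**Figure D2:**
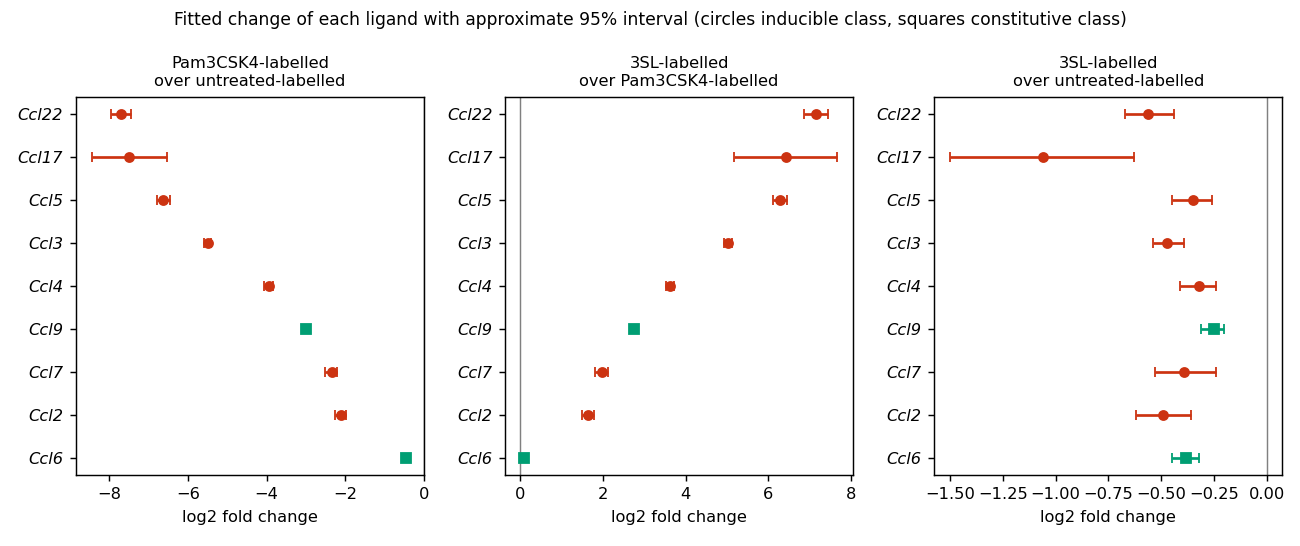
Fitted log2 change of each ligand, 1 row a gene, in the 3 comparisons, with approximate 95% intervals, circles for the inducible class and squares for the constitutive class, on axes that differ between panels. Ccl6 lies nearest 0 and Ccl9 lies among the circles in the 2 panels with Pam3CSK4-labelled libraries, and in the third panel all 9 lie left of 0; the Ccl17 value rests on 1 count in the Pam3CSK4-labelled group.

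The 3SL-labelled libraries had fewer transcripts of all 9 ligands than the untreated-labelled ones, by much smaller amounts, 16.1% to 31.96% in 8 of them and 52.2% for Ccl17. In edgeR's test 9 of 9 were called lower, where 5.11% of all genes were, and in all 9 the groups did not overlap, where 12.5% of all genes were lower without overlap. The median log2 change was -0.39 over the 9 and 0 over all genes. Over all genes 8.94% were called, 439 higher (3.83%) and 586 lower, and 11.4% were higher without overlap. Of the calls 42.8% were higher, against 66% with scaling by library size alone, under which all 9 ligands were still called lower. Both groups also enter the comparisons above.

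The log2 changes ran from -1.06 to -0.25. Among the inducible class the log2 change was -0.49 ± 0.065 for Ccl2 (edgeR adjusted p = 6.59e-06), -0.47 ± 0.036 for Ccl3 (5.61e-10), -0.32 ± 0.043 for Ccl4 (6.38e-06), -0.35 ± 0.046 for Ccl5 (6.59e-06), -0.39 ± 0.069 for Ccl7 (0.000345) and -0.56 ± 0.057 for Ccl22 (8.37e-08). Ccl17, at -1.06 ± 0.213 (edgeR adjusted p = 0.00115), rested on 74 and 379 counts. In the constitutive class Ccl6 changed by -0.38 ± 0.032 (edgeR adjusted p = 2.7e-09) and Ccl9 by -0.25 ± 0.027 (2.35e-07).

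The class medians were -0.47 for the inducible and -0.32 for the constitutive ligands, and the values of Ccl4 and Ccl5 lay between those of Ccl6 and Ccl9. The call for Ccl7 was lost with DESeq2's Wald test (log2 -0.39, adjusted p = 0.0687), and that for Ccl17 when all libraries were thinned to one depth (log2 -0.96, adjusted p = 0.159). Over the 9 fits that each left out 1 library, all 9 ligands were called lower in each. Il1b and Tnf were lower in 3SL-labelled libraries too, by 0.32 ± 0.044 and 0.43 ± 0.032 on the log2 scale (edgeR adjusted p = 1.23e-05 and 3.47e-10).

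**Figure D3:**
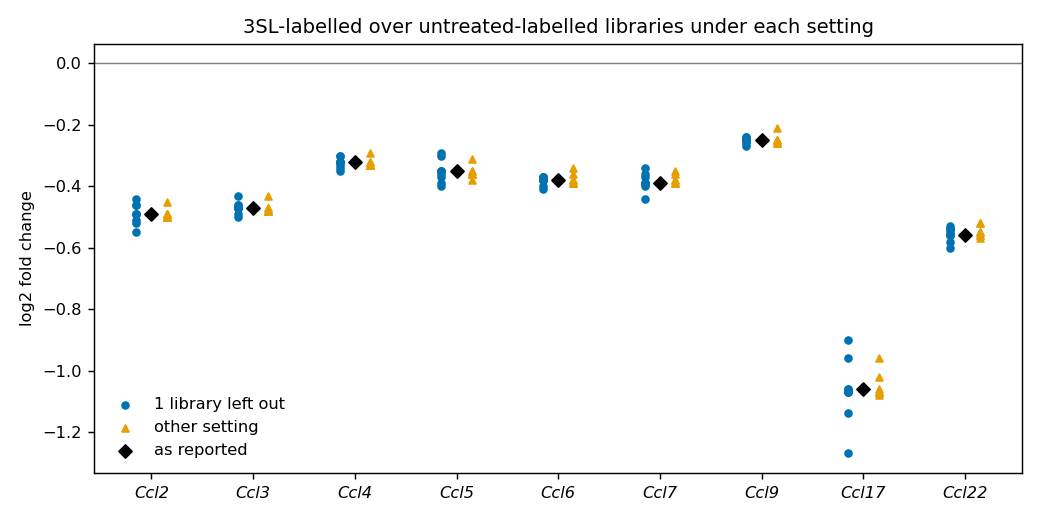
Log2 change of each ligand in 3SL-labelled over untreated-labelled libraries, with diamonds for the values given in the text, circles for fits with 1 library left out and triangles for the other settings. Every point lies below 0, and Ccl17 has the widest spread, from -1.27 to -0.90.

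Per unit length, the make-up of the ligand pool differed between the groups. Levels between genes are compared as TPM (counts per base of a gene, scaled so that each library has the same sum) over the union of each gene's exons. The 9 ligands summed to 24374 ± 625 TPM in 3SL-labelled, 4743 ± 346 TPM in Pam3CSK4-labelled and 30516 ± 766 TPM in untreated-labelled libraries (SD, n = 3 each). Ccl3 made up 37.5% ± 0.51 of that sum in 3SL-labelled, 7.34% ± 0.12 in Pam3CSK4-labelled and 39.6% ± 0.54 in untreated-labelled libraries. Ccl6 took 6.17% ± 0.19 in 3SL-labelled, 37.4% ± 2.21 in Pam3CSK4-labelled and 6.14% ± 0.11 in untreated-labelled libraries.

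Ccl9 kept a like share in each group, 20.03% in 3SL-labelled, 19.2% in Pam3CSK4-labelled and 18.2% in untreated-labelled libraries. The shares of Ccl2 were 6.73%, 13.9% and 7.21%, and those of Ccl7 were 8.22%, 13.5% and 8.18%, in 3SL-labelled, Pam3CSK4-labelled and untreated-labelled libraries in that order. Ccl4 took 16.0% in 3SL-labelled, 8.32% in Pam3CSK4-labelled and 15.3% in untreated-labelled libraries. Ccl5 took 4.91% in 3SL-labelled, 0.407% in Pam3CSK4-labelled and 4.78% in untreated-labelled libraries, and Ccl22 and Ccl17 were each under 0.5% in every group.

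The ratio of summed inducible to summed constitutive TPM was 2.72, 2.81 and 2.93 in the 3SL-labelled libraries, 0.756, 0.669 and 0.893 in the Pam3CSK4-labelled ones and 3.14, 3.13 and 3.05 in the untreated-labelled ones. The inducible class outweighed the constitutive one in 6 libraries and was outweighed in the 3 Pam3CSK4-labelled ones.

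**Figure D4:**
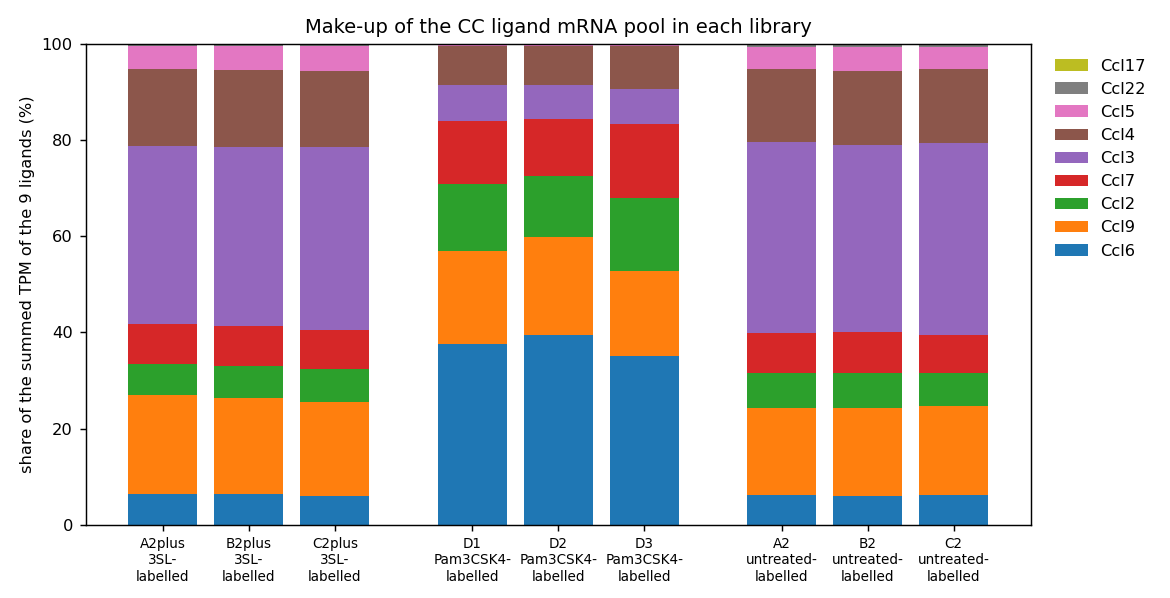
Share of each ligand in the summed TPM of the 9, in percent, stacked for each library, with the 3SL-labelled libraries on the left, the Pam3CSK4-labelled ones in the middle and the untreated-labelled ones on the right. The blue Ccl6 block averages 37.4% of the Pam3CSK4-labelled bars and 6.17% and 6.14% of the 3SL-labelled and untreated-labelled bars.

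The order of levels by mean TPM was the same in 3SL-labelled and untreated-labelled libraries: Ccl3, Ccl9, Ccl4, Ccl7, Ccl2, Ccl6, Ccl5, Ccl22 and Ccl17, with no overlap between neighbours in the order. In Pam3CSK4-labelled libraries it was Ccl6, Ccl9, Ccl2, Ccl7, Ccl4, Ccl3, Ccl5, Ccl22 and Ccl17, where the ranges overlapped between Ccl2 and Ccl7, between Ccl4 and Ccl3 and between Ccl22 and Ccl17. Mean TPM in 3SL-labelled, Pam3CSK4-labelled and untreated-labelled libraries was 9131, 349 and 12088 for Ccl3, 4880 and 906 and 5557 for Ccl9, and 1503, 1769 and 1874 for Ccl6. With the longest transcript as the length, the places of Ccl2, Ccl5 and Ccl6 changed in 3SL-labelled libraries and those of Ccl2 and Ccl6 in untreated-labelled ones.

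Ratios between neighbouring genes within a library do not depend on the scaling between libraries. The ratio of Ccl9 to Ccl6 per kilobase was 3.29, 3.18 and 3.28 in 3SL-labelled libraries, 0.512, 0.519 and 0.507 in Pam3CSK4-labelled and 2.91, 3.02 and 2.97 in untreated-labelled libraries. The 3 groups did not overlap, and Ccl9 exceeded Ccl6 in 6 libraries and lay below it in 3. Ccl3 over Ccl4 was 2.34 ± 0.059 in 3SL-labelled, 0.884 ± 0.045 in Pam3CSK4-labelled and 2.59 ± 0.051 in untreated-labelled libraries (SD, n = 3 each).

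Ccl2 over Ccl7 differed less between the groups, at 0.818 ± 0.021 in 3SL-labelled, 1.04 ± 0.046 in Pam3CSK4-labelled and 0.882 ± 0.013 in untreated-labelled libraries (SD, n = 3 each). For each of these 9 comparisons of a ratio between 2 groups the two-sided exact permutation p was 0.1, the smallest that 3 libraries against 3 allow, and 0.1 after Benjamini-Hochberg adjustment over the 9. Ccl22 over Ccl17 was 8.59, 5.91 and 5.14 in 3SL-labelled and 4.91, 4.01 and 4.07 in untreated-labelled libraries. In the Pam3CSK4-labelled group it had a value in D2 alone, 2.87, since Ccl17 had 0 counts in D1 and D3.

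**Figure D5:**
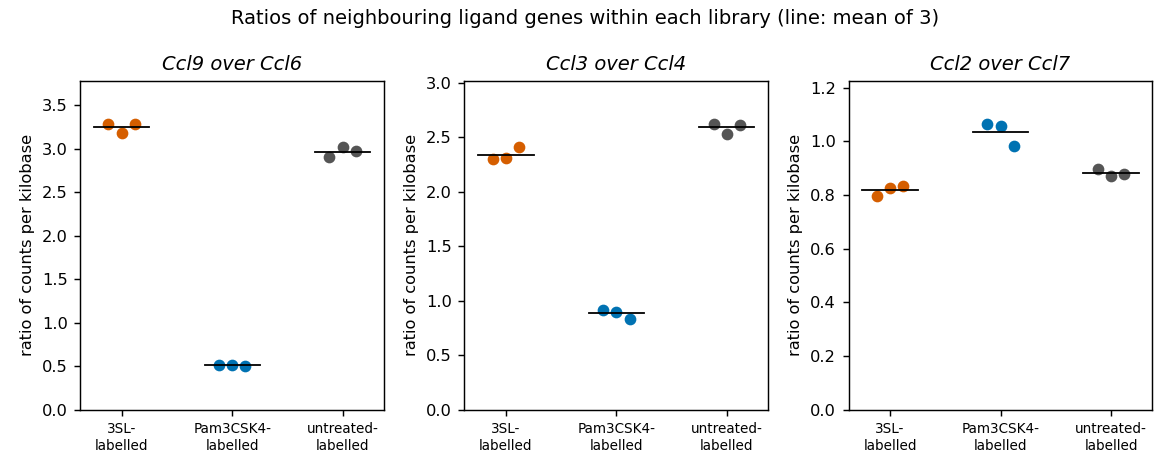
Ratio of counts per kilobase between neighbouring ligand genes in each library, on linear axes from 0, with points for libraries and a line at the mean of 3, for 3SL-labelled, Pam3CSK4-labelled and untreated-labelled libraries from left to right. Ccl9 over Ccl6 averages 3.25, 0.512 and 2.97 in that order, and Ccl2 over Ccl7 stays between 0.795 and 1.07.

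The genes most like a ligand across the 9 libraries were found by Pearson's r of log2 CPM over 7101 genes. They are given as a description, since the 9 points share the split between Pam3CSK4-labelled and other libraries. The chemokine gene Ccl12 (r = 0.998), the growth factor gene Pdgfb (0.998) and Eef1e1 (0.996) lay closest to Ccl2. For Ccl5 they were Gng12, Denr and the lipopolysaccharide co-receptor gene Cd14 (0.9998 each), and for Ccl9 Tnf, the coagulation factor gene F10 and Gch1 (0.9996 each). For Ccl17 they were Usp12 (0.999), Clcn7 (0.999) and the adhesion molecule gene Vcam1 (0.998).

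Of 12 other CC ligand genes, 4 passed the filter: Ccl8, Ccl12, Ccl24 and Ccl25. In Pam3CSK4-labelled against untreated-labelled libraries 3 of the 4 were lower: Ccl12, a mouse CCR2 ligand (log2 -2.57 ± 0.102, edgeR adjusted p = 1.18e-18), Ccl24, an eosinophil attractant (log2 -2.30 ± 0.429, adjusted p = 2.68e-05), and Ccl8 (log2 -0.42 ± 0.118, adjusted p = 0.00218), whose call was lost with scaling by library size alone (adjusted p = 0.399). In 3SL-labelled against Pam3CSK4-labelled libraries Ccl12 (log2 1.98 ± 0.116, edgeR adjusted p = 9.95e-15) and Ccl24 (log2 2.91 ± 0.445, adjusted p = 1.73e-06) were higher. In 3SL-labelled against untreated-labelled libraries Ccl12 was lower (log2 -0.59 ± 0.088, edgeR adjusted p = 3.51e-05) and the other 3 were not called. Ccl24 lay higher without overlap (log2 0.61 ± 0.307, edgeR adjusted p = 0.26), and Ccl8 was called lower with DESeq2's size factors. Ccl24 had 1, 8 and 3 counts in D1, D2 and D3. Over all genes 35.9% were called lower in the first comparison, 34.7% higher in the second and 5.11% lower in the third. Ccl1, Ccl19, Ccl20, Ccl21a and Ccl26 had 0 counts in all 9 libraries, and the floor of 3 counts allows up to 0.0746 to 0.422 CPM per library.

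Of 11 CC chemokine receptor genes, 7 passed the filter. In both comparisons with Pam3CSK4-labelled libraries 6 of these 7 shared the direction of the ligands. In Pam3CSK4-labelled against untreated-labelled libraries, where 35.9% of all genes were called lower, 6 of the 7 receptors were lower. Among these, Ccrl2, which binds chemerin, had a log2 change of -4.07 ± 0.082 (edgeR adjusted p = 1.78e-25), Ccr1 -1.03 ± 0.043 (3.75e-18), Ccr7, which guides cells to lymph nodes, -4.39 ± 0.387 (6.06e-11) and Ccr3 -0.89 ± 0.071 (7.89e-12). Ccr7 had 0, 7 and 1 counts in D1, D2 and D3. The one that was higher was Ccr2, the monocyte receptor for Ccl2 and Ccl7, which averaged 57.2 ± 1.70 CPM in Pam3CSK4-labelled and 29.6 ± 1.34 CPM in untreated-labelled libraries (SD, n = 3 each; log2 0.96 ± 0.062, edgeR adjusted p = 8.5e-14).

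In 3SL-labelled against Pam3CSK4-labelled libraries, where 34.7% of all genes were called higher, 6 of the 7 receptors were higher. The 6 included Ccrl2 (log2 3.24 ± 0.094, edgeR adjusted p = 8.76e-22), Ccr1 (0.85 ± 0.045, 1.03e-15), Ccr3 (0.78 ± 0.078, 1.03e-09) and Ccr7 (4.05 ± 0.446, 5.75e-09), whose few Pam3CSK4-labelled counts are given above. Ccr2 was lower (-1.16 ± 0.071, 2.73e-14). In 3SL-labelled against untreated-labelled libraries, where 5.11% of all genes were called lower, 3 of the 7 receptors were lower and 4 were not called. The lower ones included Ccrl2 (log2 -0.83 ± 0.061, edgeR adjusted p = 2.15e-10) and Ccr1 (-0.17 ± 0.042, 0.00705). Ccr4, the receptor of Ccl17 and Ccl22, and Ccr8 had 0 counts in all libraries, and none of the 4 atypical receptor genes passed the filter.

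A list of 15 transcription factor genes known from inflammatory promoters was tested in full. In Pam3CSK4-labelled against untreated-labelled libraries 11 of the 15 were lower and 2 higher, where 35.9% and 39.0% of all genes were. With scaling by library size alone 10 were lower and 4 higher, since Irf3 was not called and Irf4 and Irf5 were called higher. The 6 with the smallest p were the NF-kappaB subunit genes Nfkb2 (log2 -3.83 ± 0.045, edgeR adjusted p = 6.82e-31), Nfkb1 (-2.61 ± 0.035, 1.07e-29), Relb (-3.21 ± 0.06, 3.08e-26) and Rel (-1.98 ± 0.052, 6.85e-23), with Cebpb (-3.31 ± 0.064, 5.82e-26) and Irf1 (-1.90 ± 0.052, 2.21e-22). In 3SL-labelled against Pam3CSK4-labelled libraries 12 were higher and 2 lower, where 34.7% and 36.8% of all genes were. With scaling by library size alone these were 10 and 4, since Irf3 was not called and Irf4 and Irf5 were lower. The 12 were led by Nfkb2 (log2 3.65 ± 0.045, edgeR adjusted p = 3.02e-30), Nfkb1 (2.44 ± 0.035, 7.83e-29), Relb (3.12 ± 0.064, 2.72e-25), Cebpb (3.19 ± 0.066, 3.59e-25), Rel (1.84 ± 0.055, 1.95e-21) and Irf1 (1.69 ± 0.056, 2.07e-20).

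In 3SL-labelled against untreated-labelled libraries 5 of the 15 were lower and 1 higher, where 5.11% and 3.83% of all genes were. The other 9 were not called, Relb, Cebpb and Rel among them, though Rel was called lower with DESeq2's size factors. Without overlap 7 of the 15 were lower, Relb and Rel among them, and 2 higher, where 12.5% and 11.4% of all genes were. The 5 genes called lower included Nfkb1 (log2 -0.18 ± 0.031, edgeR adjusted p = 0.000278), Nfkb2 (-0.19 ± 0.036, 0.000696), Irf1 (-0.21 ± 0.047, 0.00379) and Irf7 (-0.23 ± 0.063, 0.02), whose groups overlapped. The AP-1 gene Fos was higher (log2 0.49 ± 0.07, edgeR adjusted p = 1.97e-05).

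Of 6 genes for mRNA decay and stability factors, which bind cytokine and chemokine messages, all were called in Pam3CSK4-labelled against untreated-labelled libraries. There 3 were lower and 3 higher, where 35.9% and 39.0% of all genes were. The lower ones were Zc3h12a, or regnase-1 (log2 -4.75 ± 0.056, edgeR adjusted p = 8.08e-31), Zfp36, or tristetraprolin (-2.82 ± 0.043, 3.05e-28), and Elavl1 (-0.35 ± 0.043, 3.17e-08). The higher ones were Zfp36l2 (log2 1.22 ± 0.048, edgeR adjusted p = 8.41e-19), Zfp36l1 (1.43 ± 0.067, 5.51e-17) and Khsrp (0.47 ± 0.041, 4.77e-11). In 3SL-labelled against Pam3CSK4-labelled libraries these 6 had the opposite signs and all were called: Zc3h12a (log2 4.65 ± 0.057, edgeR adjusted p = 2.91e-30), Zfp36 (2.97 ± 0.044, 1.68e-28), Elavl1 (0.32 ± 0.046, 4.67e-07), Zfp36l2 (-1.11 ± 0.052, 5.46e-17), Zfp36l1 (-1.36 ± 0.075, 2.67e-15) and Khsrp (-0.48 ± 0.044, 1.5e-10). With scaling by library size alone Elavl1 was not called in either comparison. Over all genes 75.0% were called in the first of these comparisons and 71.5% in the second. In 3SL-labelled against untreated-labelled libraries 1 of the 6 passed, Zfp36 (log2 0.15 ± 0.037, edgeR adjusted p = 0.00735), where 8.94% of all genes were called.

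A further list had 8 genes for proteases that trim chemokines and proteoglycans that hold them. In Pam3CSK4-labelled against untreated-labelled libraries, where 35.9% of all genes were called lower, 6 of these 8 were lower. They included the metalloproteinase genes Mmp14 (log2 -6.90 ± 0.048, edgeR adjusted p = 3.2e-35) and Mmp9 (-4.00 ± 0.075, 2.69e-26) and the syndecan genes Sdc4 (-2.85 ± 0.042, 1.27e-28) and Sdc1 (-1.26 ± 0.054, 7.8e-18). Mmp2 (log2 -2.29 ± 0.222, edgeR adjusted p = 4.04e-10) and Dpp4 (-1.55 ± 0.37, 0.000499), whose enzyme trims the amino termini of chemokines, were the others. Dpp4 had 3, 12 and 11 counts in D1, D2 and D3, and its groups overlapped in 3SL-labelled against Pam3CSK4-labelled libraries. With scaling by library size alone the other 2 of the 8, Mmp12 and Ctsg, were called higher. In 3SL-labelled against Pam3CSK4-labelled libraries the 6 genes were higher, led by Mmp14 (log2 6.84 ± 0.048, edgeR adjusted p = 7.64e-35), Sdc4 (2.89 ± 0.043, 1.34e-28), Mmp9 (4.55 ± 0.075, 1.68e-27), Sdc1 (1.31 ± 0.058, 1.63e-17) and Mmp2 (1.79 ± 0.264, 9.35e-07), and Mmp12, which cleaves several chemokines, was lower (log2 -0.19 ± 0.034, edgeR adjusted p = 1.81e-05). In 3SL-labelled against untreated-labelled libraries Mmp9 was higher (log2 0.55 ± 0.051, edgeR adjusted p = 1.68e-08) and Mmp12 lower (-0.19 ± 0.034, 0.000367). Over all genes 34.7% were called higher in 3SL-labelled against Pam3CSK4-labelled libraries, and 3.83% higher and 5.11% lower against untreated-labelled ones.

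Other marker lists were summed in the same way. The 9 stromal and endothelial markers summed to 12.9 to 15.5 CPM in 3SL-labelled, 5.05 to 5.52 CPM in Pam3CSK4-labelled and 16.0 to 18.0 CPM in untreated-labelled libraries. Pdgfrb, a pericyte receptor gene, made up most of the difference, with 6.90 CPM on average in 3SL-labelled, 1.12 CPM in Pam3CSK4-labelled and 10.3 CPM in untreated-labelled libraries. In Pam3CSK4-labelled against untreated-labelled libraries, where 35.9% of all genes were called lower, 2 of the 3 tested, Pdgfrb and Pecam1, were lower. Cdh5 was not called (called higher with scaling by library size alone). The other 6, among them the collagen genes, Dcn and Lum, averaged under 1 CPM in each group, and Lum had 0 counts in the Pam3CSK4-labelled libraries.

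The 9 neutrophil and progenitor markers summed to 230.2 to 253 CPM in 3SL-labelled, 243 to 299 CPM in Pam3CSK4-labelled and 269 to 272 CPM in untreated-labelled libraries. The sums hide opposite changes. Over all genes 39.0% were called higher and 35.9% lower in Pam3CSK4-labelled against untreated-labelled libraries. There 5 of the 8 markers that passed the filter were higher and 3 lower (5 and 1 with scaling by library size alone). Among the higher ones Mpo, a granule enzyme gene of progenitors, averaged 40.2 CPM in Pam3CSK4-labelled and 18.9 CPM in untreated-labelled libraries (log2 1.08 ± 0.069, edgeR adjusted p = 5.73e-14), and Elane averaged 12.6 CPM in Pam3CSK4-labelled and 5.82 CPM in untreated-labelled libraries (1.13 ± 0.115, 1.12e-09). Among the lower ones Camp averaged 7.02 CPM in Pam3CSK4-labelled and 14.1 CPM in untreated-labelled libraries (log2 -1.04 ± 0.122, edgeR adjusted p = 1.64e-08). In 3SL-labelled against Pam3CSK4-labelled libraries 2 were higher and 5 lower (1 and 6 with scaling by library size alone), where 34.7% and 36.8% of all genes were. In 3SL-labelled against untreated-labelled libraries edgeR called 0 of the 8, where 8.94% of all genes were called. Of these 8, 4 had an unadjusted p under 0.05 and 1, Ltf, was called lower with DESeq2's size factors. The lymphocyte markers summed to 0.703 to 1.02 CPM in 3SL-labelled, 0.0800 to 0.746 CPM in Pam3CSK4-labelled and 1.06 to 2.21 CPM in untreated-labelled libraries. For the mast cell and basophil markers these sums were 1.86 to 3.37, 4.40 to 4.59 and 2.86 to 3.80 CPM. Kit alone of these passed the filter, higher in Pam3CSK4-labelled against untreated-labelled libraries (log2 0.67 ± 0.215, edgeR adjusted p = 0.0071). In 3SL-labelled against Pam3CSK4-labelled libraries it was lower (log2 -0.78 ± 0.257, edgeR adjusted p = 0.00871). Beside these sums, the 9 ligands summed to 9808 to 10228 CPM in 3SL-labelled, 1856 to 2040 CPM in Pam3CSK4-labelled and 12379 to 13114 CPM in untreated-labelled libraries. The part of other cell types in the ligand levels was not tested.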

How the data were processed

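Whole-number counts of reads per gene were deposited by the authors as 1 table of 22001 rows. Per the submitters' processing notes, reads were aligned with HISAT2 2.1.0 and counted with featureCounts (Subread). The notes name hg38, while the identifiers are mouse Ensembl genes, so the build was not settled. Strand setting and annotation are not given in the sources used here. RNA was extracted with TRIzol and libraries made with an NEBNext Ultra RNA kit, per the labels' protocols. Another 15 columns of per-sample values in the table were not used.

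Symbols matched 21909 of the identifiers. From the deposited counts, edgeR 4.0.16 in R 4.3.3 was used with its filter on low counts (11469 genes, 52.1% of rows), TMM scaling, 1 quasi-likelihood fit to the 9 libraries and Benjamini-Hochberg adjustment over all genes tested, at 0.05. SEs are approximate, taken from the fitted change and its test. CPM are TMM-scaled. TPM used the union of exons in GENCODE annotation of GRCm38, and sequences came from RefSeq windows. The self-test of the fit ran on simulated data with known changes. Alternatives were DESeq2 1.42.0, its size factors in edgeR, library size only, no filter, fits to 2 groups, thinning to one depth, each library left out, a replicate block and the longest transcript as length.

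The members, classes and lists were chosen with earlier results of these data known. Named were all 9 members, the 3 genes most like Ccl2, Ccl5, Ccl9 and Ccl17, and Il1b and Tnf. Up to 6 called members by smallest p were named of each list other than the cell type markers. The cell type markers were not under that rule, and only some of them are named. Replicates differed by more than sampling noise (chi-square per degree of freedom 1.85 to 3.01), so each counted as 1 library. No molecular identifiers are named in the sources used here, so intervals and floors cover counting error only. Some genes of the receptor and transcription factor lists are counted in the totals but not reported here by name.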

Additional observations from a re-analysis of the deposited data

How the results depend on the processing

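All 9 ligands stayed lower in Pam3CSK4-labelled than in untreated-labelled libraries and were called under all 15 alternatives. Between 3SL-labelled and untreated-labelled libraries 8 or 9 were called lower under the 16 alternatives, and between 3SL-labelled and Pam3CSK4-labelled libraries 8 or 9 were called higher under 15. The results that changed were those of Ccl6, Ccl7 and Ccl17 and the counts over all genes.

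With scaling by library size only, the median over all genes moved to 0.34, -0.29 and 0.04 on the log2 scale in Pam3CSK4-labelled against untreated-labelled, 3SL-labelled against Pam3CSK4-labelled and 3SL-labelled against untreated-labelled libraries. All-gene calls in the first were then 6882 higher and 2380 lower, in the second 2434 higher and 6393 lower, and in the third 788 higher. Ccl6 turned to -0.19 in the second, which made 1 ligand called lower there. Ccl6 also lost its call there without the filter (log2 0.06, adjusted p = 0.155) and with thinning (0.07, 0.0785), and 0.06 to 0.11 was its range with 1 library left out. Thinning to one depth left 221 genes higher and 284 lower in 3SL-labelled against untreated-labelled libraries. With 1 library left out there were 270 to 435 higher and 356 to 603 lower; without B2, the deepest library, 270 and 356, and without A2plus 377 lower.

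Replicate codes A2, B2 and C2 recur in the 3SL-labelled and untreated-labelled groups. Deviations of libraries with the same code correlated at -0.02, 0.04 and 0.01, and those with different codes at -0.03 to 0.02. The codes were not taken to pair the libraries, though correlations over all tested genes, noisy ones included, cannot settle whether they do. With a replicate block, 9 ligands were called lower, with 402 genes higher and 549 lower. TPM with the longest transcript moved by more than the replicate SD for 24 of 27 levels. The causes of these changes were not tested.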
